A study of Mus musculus with 4 samples.

Results

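Spots marked as amyloid plaque were compared between a 5xFAD-Dp16 and a 5xFAD mouse brain section measured by Visium spatial transcriptomics, in which RNA is captured on barcoded spots that each cover a small area of tissue. The mark is a column of the deposited spot table: 720 spots carry it, 396 of the 2941 spots of the 5xFAD-Dp16 section and 324 of the 2347 spots of the 5xFAD section. Spots were matched within the deposited region labels that hold at least 10 plaque spots in each section. This left 363 plaque spots of the 5xFAD-Dp16 section and 310 of the 5xFAD section in 10 regions, labelled Cortex AUC, Cortex CTXsp, Cortex OLF, Cortex PTL, Cortex RSP IL, Cortex SSp, FB, Hippocampus, Hypothalamus and Thalamus. All animals were male and 9 months old, and each genotype was 1 hemisphere section of 10 µm taken between bregma 1 and -2 mm. The 5xFAD-Dp16 animal carries the 5xFAD transgenes and the Dp16 duplication, the 5xFAD animal the transgenes alone, the Dp16 animal the duplication alone, and the wild-type animal, of strain C57BL/6J, neither. 5xFAD transgenes are human sequences with familial Alzheimer mutations driven by regulatory elements of Thy1, a neuronal gene, and Dp16 is a duplicated stretch of mouse chromosome 16 that corresponds to much of human chromosome 21. With 1 section per genotype, differences have no replicate check, no test between genotypes was possible, and intervals cover counting error only.

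Amyloid plaques are extracellular deposits around which microglia gather, and microglia in contact with them take on a state marked by Trem2, Tyrobp, Cst7 and lysosomal genes. Astrocytes nearby raise Gfap and Serpina3n. Some plaque microglia also carry an interferon signature. The Dp16 stretch holds genes for several interferon receptor chains and the mouse App gene.

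Plaque spots made up a like share of both sections but lay in different places. They were 14.1% of spots in 5xFAD-Dp16 and 14.7% in 5xFAD after regional shares were standardised to the same mix of regions. In Hippocampus, 49 of 307 spots were marked in 5xFAD-Dp16 (15.96%, exact binomial interval 12.05 to 20.5%), against 13 of 240 in 5xFAD (5.42%, 2.92 to 9.08%). Hypothalamus had the opposite order, with 53 of 487 spots marked in 5xFAD-Dp16 (10.9%, 8.26 to 14.0%) and 64 of 283 in 5xFAD (22.6%, 17.9 to 27.9%). Cortex OLF was also lower, at 7.46% in 5xFAD-Dp16 (4.73 to 11.1%) and 15.1% in 5xFAD (11.2 to 19.8%). In the other 7 regions the intervals of both sections overlapped. Plaque spots cluster in the tissue, and these intervals do not allow for it.

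**Figure D1:**
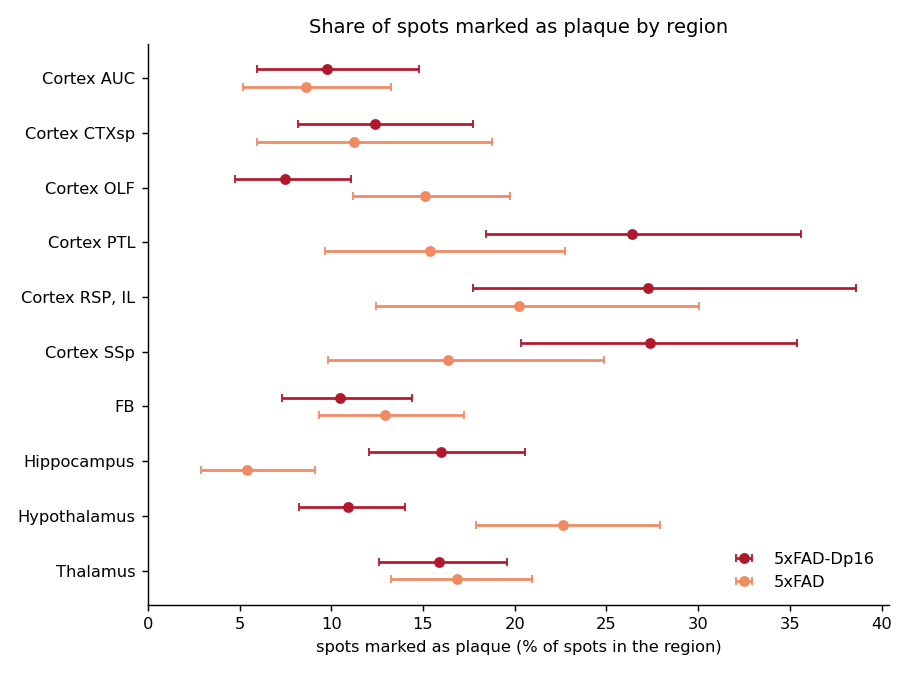
Share of spots marked as plaque (percent of the spots in each region) in 5xFAD-Dp16 and 5xFAD, with exact binomial 95% intervals as bars. The 2 sections separate in Hippocampus, higher in 5xFAD-Dp16 at 15.96% against 5.42%, and in Hypothalamus and Cortex OLF, lower in 5xFAD-Dp16.

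Plaque spots carried the microglial markers that their label implies. Levels are given in CPM, that is UMIs (unique molecules counted) scaled to the total of the spot class in each region and averaged over regions by their share of all plaque spots. Cst7, a protease inhibitor of plaque microglia, had 289 CPM in plaque spots and 48.6 CPM in unmarked spots of 5xFAD-Dp16, where unmarked spots are neither plaque nor plaque neighbour. In 5xFAD it had 267 CPM in plaque spots and 42.2 CPM in unmarked spots. All spots of the same regions had 0.123 CPM of Cst7 in Dp16 and 0.667 CPM in wild-type. Of the 48 plaque-associated microglia genes used, 47 were higher in plaque than in unmarked spots in each section, with a median log2 ratio of 1.10 in 5xFAD-Dp16 and 1.06 in 5xFAD. A spot can hold several cells, so more microglia and more RNA per microglia cannot be told apart.

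Plaque spots of the matched regions held 4204973 UMIs in 5xFAD-Dp16 and 3520559 in 5xFAD, with a median of 10537 and 9974.5 UMIs per spot and 13.6% and 14.3% mitochondrial counts. Of all genes, 8852 had a mean of at least 10 CPM over the plaque spots of both sections and were used. A gene is called higher or lower when the log2 ratio of 5xFAD-Dp16 over 5xFAD is at least 0.32 in size and its 95% counting interval excludes no difference. By this rule 305 genes (3.45%) were higher and 538 (6.08%) lower in plaque spots of 5xFAD-Dp16, and the median log2 ratio of all genes used was -0.015. With TMM scaling, which centres on the bulk of genes, the same rule gave 435 higher and 391 lower. In unmarked spots of the same sections 237 genes (2.68%) were higher and 740 (8.36%) lower, and in neighbour spots 259 (2.93%) were higher and 596 (6.73%) lower. In Dp16 over wild-type, from all spots of these regions, 224 (2.53%) were higher and 1011 (11.4%) lower, with a median log2 ratio of -0.09. With no fold asked for, 47.6% of genes lay above 0 in plaque spots, 42.6% in neighbour spots and 38.3% in unmarked spots. By region, 10.1% of genes were above 0 in at least 8 of the 10 regions in plaque spots, and 9.34% were below it.

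Genes of plaque-associated microglia had a median ratio near 0 between the sections, while their sum, dominated by Fth1, was higher in 5xFAD-Dp16. Trem2, the lipid-sensing receptor of this state, had 262 CPM in 5xFAD-Dp16 and 258 CPM in 5xFAD (1028 and 893 UMIs), a log2 ratio of 0.02 (counting interval -0.12 to 0.17). Its signalling adaptor Tyrobp had 848 CPM in 5xFAD-Dp16 and 812 CPM in 5xFAD (log2 ratio 0.06, -0.02 to 0.14). The log2 ratio of Cst7 was 0.11 (-0.03 to 0.25), and that of Itgax, an integrin of the state, was -0.18 (-0.80 to 0.40). Over the 48 of 52 listed genes that passed the filter the median log2 ratio was -0.0049, with 24 above 0, 5 higher by the rule and 5 lower. Among all genes used, 47.6% lay above 0, 3.45% were higher and 6.08% lower. Summed, where abundant members such as Fth1 weigh most, the 48 genes had 29874.4 CPM in 5xFAD-Dp16 and 25540.5 CPM in 5xFAD. The log2 ratio of the sums was 0.23 (0.21 to 0.24). Most of the gap between the sums came from Fth1 alone (log2 ratio 0.45). By region, the summed list was above 0 in 7 of 10. After spots of at least 4472 UMIs were thinned to that depth, Cst7 was found in 156 of 347 plaque spots of 5xFAD-Dp16 (45.0%, exact binomial interval 39.6 to 50.4%) and in 122 of 292 of 5xFAD (41.8%, 36.1 to 47.7%). Without thinning these shares were 61.2% and 59.7%. Thinned spots of the same regions held Cst7 in 0.0484% in Dp16 (1 of 2067) and 0.254% in wild-type (6 of 2362), from median depths of 10359 and 11729.5 UMIs per spot.

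The microglial balance differed from region to region. Trem2, Tyrobp and Cst7 each had their highest ratio in Cortex CTXsp and a low one in Cortex PTL. In Cortex CTXsp the log2 ratio was 2.44 for Trem2 (107 UMIs in 5xFAD-Dp16, 10 in 5xFAD), 1.53 for Tyrobp and 1.80 for Cst7. In Cortex PTL it was -1.65 for Trem2 (18 UMIs in 5xFAD-Dp16, 39 in 5xFAD), -0.78 for Tyrobp and -1.04 for Cst7. Hypothalamus, where 5xFAD had the higher share of plaque spots, gave -0.32 for Tyrobp and -1.02 for Cst7.

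Within this list some members moved apart from the median. Fth1, the heavy chain of the iron store ferritin, had 15241 CPM in 5xFAD-Dp16 and 11186 CPM in 5xFAD, a log2 ratio of 0.45 (0.43 to 0.47), and was above 0 in all 10 regions. Lgals3bp, a secreted glycoprotein that binds galectins and is also interferon-inducible, had 62.8 CPM in 5xFAD-Dp16 and 36.8 CPM in 5xFAD (log2 ratio 0.77, 0.42 to 1.11). Ctss, a lysosomal protease, had a log2 ratio of 0.32 (0.21 to 0.44) but lost the call under 11 of 22 alternative settings, Fcer1g, an Fc receptor chain, at 0.33 lost it under 9, and Npc2, a lysosomal cholesterol carrier, at 0.34 under 8. The 5 lower members were Fcgr2b, an inhibitory Fc receptor (-0.58), Gpnmb, a lysosomal glycoprotein (-0.47), the growth factor Igf1 (-0.47), the adhesion molecule Cadm1 (-0.34) and Spp1, osteopontin (-0.34), and each lost the call under 7 or more of the alternatives tried. A single spot held 140 of the 368 Spp1 UMIs in 5xFAD-Dp16, and Spp1 turned to 0.19 with equal region weights. Gpnmb turned to 0.060 without Hypothalamus. Apoe, the lipid carrier whose alleles alter Alzheimer risk, had 2591 CPM in 5xFAD-Dp16 and 2897 CPM in 5xFAD (log2 ratio -0.16, -0.20 to -0.12), below the fold.

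Homeostatic microglial genes had a median log2 ratio of 0.02 over 19 of 21 genes. By the rule 2 were higher and none lower, against 3.45% and 6.08% of all genes used. The higher ones were Aif1 (0.54, 0.18 to 0.89), which encodes the microglial marker IBA1, and Siglech (0.50, 0.03 to 0.95), a microglial lectin. P2ry12, the purinergic receptor of resting microglia, had 36.5 CPM in 5xFAD-Dp16 and 44.2 CPM in 5xFAD, within counting error. Aif1 lost the call without FB and with the mean of spot CPM, and Siglech under 7 of 22 alternatives.

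**Figure D2:**
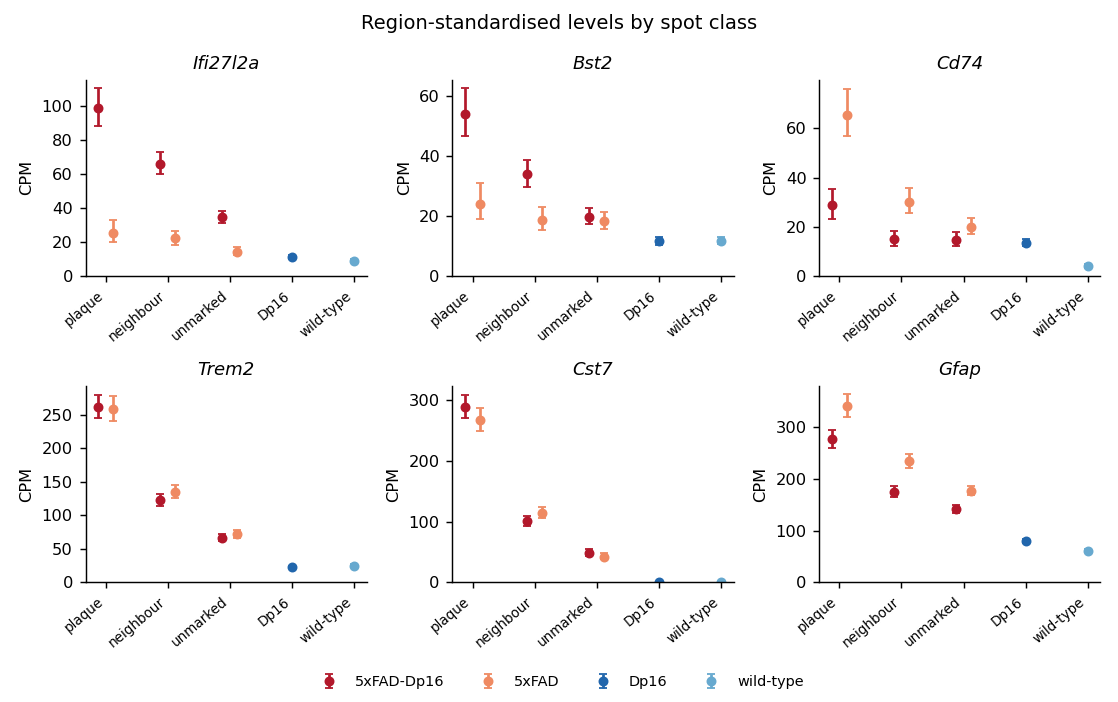
Region-standardised level (CPM, linear axis from 0) of 6 genes in plaque, neighbour and unmarked spots of 5xFAD-Dp16 and 5xFAD and in all spots of the same regions in Dp16 and wild-type, with 95% counting intervals as bars. Trem2 and Cst7 fall off with distance from the mark along like courses in both sections, whereas Ifi27l2a is higher in all 3 spot classes of 5xFAD-Dp16 and Cd74 and Gfap are lower.

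Interferon-stimulated genes lay mostly above 0 in plaque spots, and the 4 that passed the rule were all higher in 5xFAD-Dp16. Interferons are secreted cytokines whose receptors signal through JAK and STAT proteins to genes with response elements in their promoters. Of 38 listed genes 11 passed the filter, 10 of them with a ratio above 0, with a median log2 ratio of 0.47. None was lower. The median of the same 11 genes was 0.51 in neighbour spots, 0.29 in unmarked spots and 0.29 in Dp16 over wild-type. By the rule 9 of them were higher in neighbour spots and 5 in unmarked spots, with 10 above 0 in each. Of all genes used, 3.45% were higher in plaque spots, 2.93% in neighbour spots and 2.68% in unmarked spots. All plaque, neighbour and unmarked values come from the same pair of sections.

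Ifi27l2a, an interferon-inducible gene on chromosome 12, ranked first outside the duplicated stretch by the interval bound nearest 0 among genes of at least 20 CPM. It had 99.0 CPM in 5xFAD-Dp16 (366 UMIs in 172 of 363 plaque spots) and 25.6 CPM in 5xFAD (85 UMIs in 57 of 310 plaque spots), a log2 ratio of 1.95 (1.55 to 2.34). Its ratio was above 0 in all 10 regions, with the counting interval above 0 in 5 of them. The lowest was 0.81 in Cortex AUC (23 UMIs in 5xFAD-Dp16, 7 in 5xFAD) and the highest 2.80 in Cortex OLF (30 UMIs in 5xFAD-Dp16, 7 in 5xFAD). The signal was spread over spots: no plaque spot of 5xFAD-Dp16 held more than 10 Ifi27l2a UMIs, and the 5 highest spots held 12.3% of them. Away from plaques the difference was smaller but present, at 66.2 CPM in neighbour spots of 5xFAD-Dp16 and 22.3 CPM in those of 5xFAD (log2 ratio 1.57). Unmarked spots had 34.5 CPM in 5xFAD-Dp16 and 14.5 CPM in 5xFAD (log2 ratio 1.26), and all spots had 11.2 CPM in Dp16 and 9.07 CPM in wild-type (log2 ratio 0.30). The call held under all 22 alternative settings, between 1.79 and 2.11.

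Thinned to equal depth, 28.8% of plaque spots of 5xFAD-Dp16 held Ifi27l2a (24.1 to 33.9%), against 8.22% in 5xFAD (5.34 to 11.98%). Unthinned shares were 47.4% in 5xFAD-Dp16 and 18.4% in 5xFAD. The share was higher both in plaque spots with a Cst7 UMI after thinning and in those without one. Spots without Cst7 can still hold microglia, since thinned plaque spots held Tyrobp in 271 of 347 in 5xFAD-Dp16 and 242 of 292 in 5xFAD. Among plaque spots with Cst7 it was 37.8% in 5xFAD-Dp16 (59 of 156, 30.2 to 45.9%) and 15.6% in 5xFAD (19 of 122, 9.64 to 23.2%). Among plaque spots without Cst7 it was 21.5% in 5xFAD-Dp16 (41 of 191, 15.9 to 28.0%) and 2.94% in 5xFAD (5 of 170, 0.962 to 6.73%). Thinned spots of the control sections held Ifi27l2a in 4.11% in Dp16 and 3.64% in wild-type.

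Bst2 encodes tetherin, a membrane protein that holds enveloped viruses at the cell surface, and its difference was in and next to plaque spots. It had 54.1 CPM in 5xFAD-Dp16 and 24.1 CPM in 5xFAD (205 and 88 UMIs), a log2 ratio of 1.17 (0.74 to 1.59). The ratio was 0.85 in neighbour spots and 0.10 in unmarked spots (-0.19 to 0.42), where levels were 19.7 CPM in 5xFAD-Dp16 and 18.3 CPM in 5xFAD. The plaque minus unmarked difference of Bst2 was 1.06 (0.58 to 1.54), and it was among the 6 highest of all genes of at least 20 CPM. Regions were less alike than for Ifi27l2a, with the Bst2 ratio above 0 in 7 of 10 regions, from -0.76 in Cortex SSp to 2.68 in Hippocampus (30 UMIs in 5xFAD-Dp16, 1 in 5xFAD). Among plaque spots with Cst7, Bst2 was found in 25.6% in 5xFAD-Dp16 (19.0 to 33.2%) and 11.5% in 5xFAD (6.42 to 18.5%), and among those without it in 10.5% (6.51 to 15.7%) and 7.06% (3.70 to 12.01%).

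The promoters of interferon-stimulated genes often carry the letters GAAA, any 2 bases and GAAA again, the core of the interferon-stimulated response element. Among the 11 genes used, 8 have a promoter in the RefSeq table (GRCm38.p6), and 4 of these (50%) hold the letters on either strand within the 250 bases before the start used in the table. They occur in 936 of the 27025 genes with a promoter in the table (3.46%), and in 2.98% of all 32851 promoters. Bst2 and Ifit3, an antiviral gene induced by type I interferon, are the ones with 2 matches and are shown with the matched bases in capitals, each written 5′ to 3′ on the strand of the gene. Those of Bst2 lie 121 to 130 and 115 to 124 bases before the start and overlap. Those of Ifit3 read as the reverse complement, 147 to 156 and 113 to 122 bases before the start.
Bst2 (chr8:71537473-71537722, minus strand): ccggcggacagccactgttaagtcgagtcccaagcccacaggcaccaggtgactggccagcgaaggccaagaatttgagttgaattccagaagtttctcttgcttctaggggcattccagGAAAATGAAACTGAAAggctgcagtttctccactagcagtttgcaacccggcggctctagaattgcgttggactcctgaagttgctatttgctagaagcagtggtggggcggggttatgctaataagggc
Ifit3 (chr19:34583279-34583528, plus strand): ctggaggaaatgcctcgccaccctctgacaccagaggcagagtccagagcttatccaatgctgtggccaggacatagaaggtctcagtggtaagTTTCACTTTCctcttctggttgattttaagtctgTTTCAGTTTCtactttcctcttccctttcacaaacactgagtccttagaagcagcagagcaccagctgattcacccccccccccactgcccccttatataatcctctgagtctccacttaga

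Among the genes with the motif, Ifit3 had 18.9 CPM in 5xFAD-Dp16 and 12.6 CPM in 5xFAD, a log2 ratio of 0.59 (-0.08 to 1.24) that did not meet the rule, and Ifitm2, with 1 match, had -0.24 (-0.72 to 0.24). Ifitm3, a transmembrane protein that limits virus entry, has no match in this window and had 57.7 CPM in 5xFAD-Dp16 and 37.0 CPM in 5xFAD (log2 ratio 0.64, 0.28 to 0.99). Its call was lost with regions of at least 20 plaque spots and with the mean of spot CPM. Lgals3bp and the interferon-induced genes Xaf1 (0.46, -0.09 to 1.00) and Cmpk2 (0.16, -0.38 to 0.69) have no match either. Outside these 8 genes, Ifi27, a paralog of Ifi27l2a, had 0.30 (0.07 to 0.53), below the fold.

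Several interferon-related genes below the filter were looked at after their values had been seen. Cxcl10, a chemokine that draws T cells, had 70 UMIs in 17 plaque spots of 5xFAD-Dp16. The 310 plaque spots of 5xFAD held 0. With this 0 set to 3 counts the difference was 16.8-fold, a value that rests on the chosen floor and is no lower bound. The 5 highest plaque spots of 5xFAD-Dp16 held 82.9% of its Cxcl10 UMIs and 1 spot held 35. In unmarked spots Cxcl10 had 49 UMIs in 5xFAD-Dp16 and 8 in 5xFAD. Oasl2, an interferon-induced OAS family member, had 31 UMIs in 5xFAD-Dp16 and 12 in 5xFAD (log2 ratio 1.78, 0.41 to 2.95). Rtp4, also induced by interferon, had 43 and 17 UMIs (1.26, 0.21 to 2.25), while the intervals of Isg15, a ubiquitin-like modifier (0.76, -0.15 to 1.63), and Ifit3b (0.78, -0.20 to 1.69) held 0. The T-cell chemokine Ccl5 had 15.1 CPM in 5xFAD-Dp16 and 7.63 CPM in 5xFAD (0.99, 0.17 to 1.75). It passed the filter only through its level in 5xFAD-Dp16. Its call was lost without Cortex OLF and with the mean of spot CPM.

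**Figure D3:**
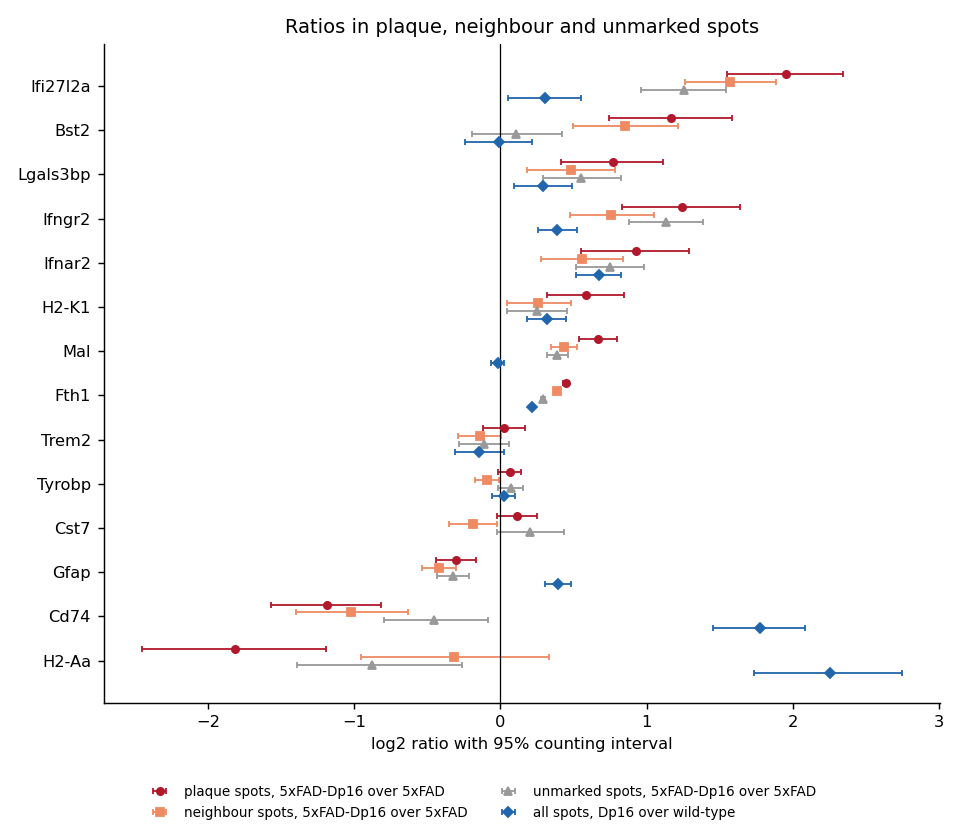
Log2 ratios of 14 genes for 5xFAD-Dp16 over 5xFAD in plaque, neighbour and unmarked spots and for Dp16 over wild-type in all spots of the same regions, with 95% counting intervals as bars (Cst7 is not drawn for Dp16 over wild-type, where both levels are near 0). Ifi27l2a steps down with distance from 1.95 in plaque spots to 1.26 in unmarked spots, Bst2 steps down to 0.10, and Cd74 and H2-Aa lie below 0 in plaque spots but above 0 in Dp16 over wild-type.

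Genes of the duplicated stretch were higher in plaque spots as a group, among them interferon receptor chains. Of 91 listed genes present in the files 54 passed the filter, 49 with a ratio above 0. By the rule 31 were higher and none lower, against 3.45% and 6.08% of all genes used. The median log2 ratio of the 54 genes was 0.50, a 1.41-fold difference, while the 225 genes used from the rest of chromosome 16 had a median of -0.014. The median was 0.53 in unmarked spots, 0.51 in neighbour spots and 0.48 in Dp16 over wild-type. Summed over the list, the ratio was above 0 in all 10 regions, from 0.32 to 0.99.

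Ifngr2, a chain of the interferon gamma receptor, led the stretch with 61.8 CPM in 5xFAD-Dp16 and 26.2 CPM in 5xFAD (265 and 96 UMIs), a log2 ratio of 1.24 (0.83 to 1.64), and was above 0 in all 10 regions. Ifnar2, a chain of the type I interferon receptor, had 62.5 CPM in 5xFAD-Dp16 and 32.9 CPM in 5xFAD (0.92, 0.55 to 1.29), also above 0 in all 10. The partner chain Ifnar1 had 12.5 CPM in 5xFAD-Dp16 and 12.9 CPM in 5xFAD in plaque spots (49 and 44 UMIs, -0.05, -0.79 to 0.66). In unmarked spots Ifnar1 had 18.9 CPM in 5xFAD-Dp16 and 9.15 CPM in 5xFAD (1.04, 0.62 to 1.47). Il10rb, shared by IL-10 and lambda interferon receptors, had 0.42 (-0.17 to 0.98). Signalling genes downstream that lie elsewhere, 5 of 11 listed passing the filter, had a median of -0.14 with none higher, and Jak2, at -0.62, was called lower but lost the call under 12 of 21 alternatives.

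Other members of the stretch ranged widely. Btg3, an antiproliferative gene, had 0.94 (0.39 to 1.48), Jam2, a junctional adhesion molecule, 0.90 (0.44 to 1.35), and the mitochondrial ribosomal gene Mrpl39 0.88 (0.45 to 1.31). Pcp4, a calmodulin-binding peptide of neurons, had 3488 CPM in 5xFAD-Dp16 and 1997 CPM in 5xFAD (0.80, 0.76 to 0.85), against 0.40 in unmarked spots. Olig1, an oligodendrocyte lineage factor, had 0.64 (0.48 to 0.80), the nucleosome-binding Hmgn1 0.66 (0.44 to 0.87) and the calcineurin inhibitor Rcan1 0.63 (0.25 to 1.01). App, the amyloid precursor gene, had 1039 CPM in 5xFAD-Dp16 and 829.6 CPM in 5xFAD (0.32, 0.25 to 0.40), a ratio of 0.33 in unmarked spots, with a call at the edge of the fold that 7 of 22 alternatives lost. Reads of the human APP transgene may not be told apart from those of mouse App in these counts. The 4 lowest of at least 20 CPM were the kinase gene Dyrk1a (0.07), Ets2 (0.23), the superoxide dismutase gene Sod1 (0.28) and Ltn1 (0.30), of which Sod1 alone had an interval above 0 (0.14 to 0.41). Below 20 CPM, Hunk had the lowest ratio of the stretch (-0.65) and was not called lower.

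**Figure D4:**
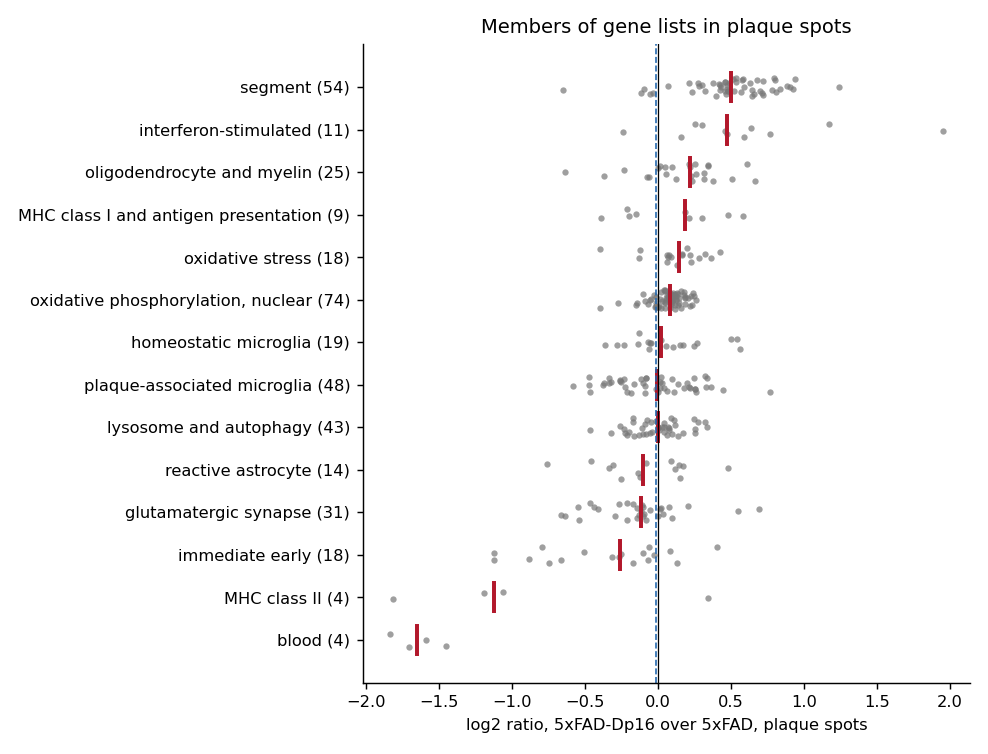
Log2 ratio of 5xFAD-Dp16 over 5xFAD in plaque spots for each used member of 14 gene lists (points, with the number used in brackets), with list medians as red bars and the median of all 8852 genes as a dashed line. The duplicated stretch (segment) and the interferon-stimulated list lie to the right with medians of 0.50 and 0.47, plaque-associated microglia centre on -0.0049, and MHC class II and blood genes lie to the left.

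MHC class II presents peptides from phagocytosed material, and 3 of its 4 genes that passed the filter were lower in plaque spots of 5xFAD-Dp16. Over all genes used the share called lower was 6.08%. H2-Aa had 9.53 CPM in 5xFAD-Dp16 and 33.5 CPM in 5xFAD (40 and 99 UMIs, log2 ratio -1.81, -2.45 to -1.19), and passed the filter only through its level in 5xFAD. Cd74, the invariant chain, had 28.8 CPM in 5xFAD-Dp16 and 65.7 CPM in 5xFAD (114 and 215 UMIs, -1.19, -1.57 to -0.82), and H2-Ab1 had -1.06 (-1.74 to -0.40). The fourth, H2-DMa, which loads peptides, had 0.34 (-0.16 to 0.83). Cd74 was above 0 in Cortex AUC, Cortex CTXsp and Cortex RSP IL and below it in the other 7 regions, from -2.45 in Cortex PTL to 1.55 in Cortex CTXsp. The 5 highest spots held 35.1% of Cd74 UMIs in 5xFAD-Dp16 and 32.1% in 5xFAD, and 52.5% and 40.4% of H2-Aa UMIs. Cd74 in unmarked spots had a ratio of -0.45, and Dp16 over wild-type had 1.77, from 13.6 CPM in Dp16 and 3.98 CPM in wild-type. Border macrophage markers summed to 10.5 CPM in 5xFAD-Dp16 and 11.01 CPM in 5xFAD over 8 genes, none of which passed the filter, with Cd163 at 0 in 5xFAD-Dp16. T and B cell markers summed to 111 CPM in 5xFAD-Dp16 and 130 CPM in 5xFAD over 12 genes, of which 2 passed the filter, with Cd3e and Cd79a at 0 in both sections, Cd3d and Jchain at 0 in 5xFAD-Dp16 and Cd8a at 0 in 5xFAD. Their part in the MHC class II difference was not tested.

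MHC class I, which presents peptides made inside the cell, had a median log2 ratio of 0.18 with 5 of 9 genes above 0. Of the 9 genes used from 16 listed, the heavy chain H2-K1 was the one higher by the rule, with 105 CPM in 5xFAD-Dp16 and 70.3 CPM in 5xFAD (log2 ratio 0.58, 0.32 to 0.85), and none was lower. Over all genes used 3.45% were higher and 6.08% lower. B2m, the light chain, had 583 CPM in 5xFAD-Dp16 and 504 CPM in 5xFAD (0.21, 0.11 to 0.31), and H2-D1 had 0.18 (0.00 to 0.37). H2-K1 was 0.25 in unmarked spots and 0.32 in Dp16 over wild-type.

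**Figure D5:**
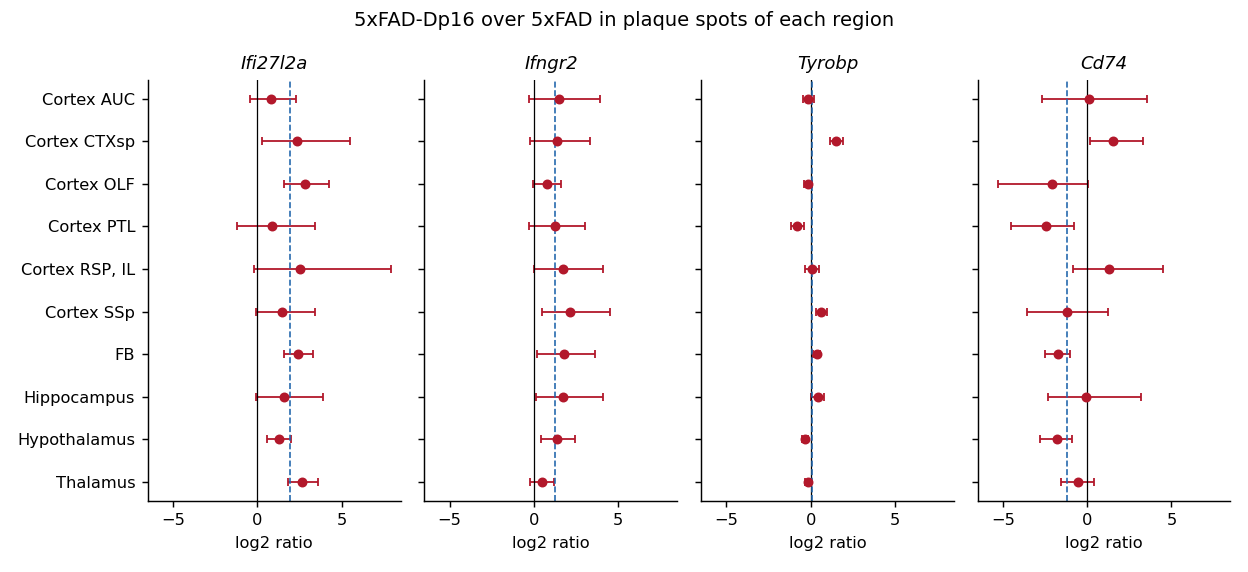
Log2 ratio of 5xFAD-Dp16 over 5xFAD in the plaque spots of each of 10 regions for 4 genes, with exact conditional binomial 95% intervals as bars and the standardised ratio as a dashed line. Ifi27l2a and Ifngr2 lie above 0 in all 10 regions, whereas Tyrobp and Cd74 lie on both sides of 0.

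Among reactive astrocyte genes none passed the rule as higher in plaque spots of 5xFAD-Dp16, and 2 were lower. Over all genes used 3.45% were higher and 6.08% lower. Gfap, the intermediate filament of reactive astrocytes, had 277 CPM in 5xFAD-Dp16 and 342 CPM in 5xFAD (1072 and 1116 UMIs, log2 ratio -0.30, -0.44 to -0.17), short of the fold, and -0.33 in unmarked spots. Vim, another filament, had 38.2 CPM in 5xFAD-Dp16 and 64.5 CPM in 5xFAD (-0.76, -1.12 to -0.40) and was lower in 9 of 10 regions. The acute-phase gene Serpina3n had -0.25 (-0.50 to -0.01). Over 14 of 29 listed genes the median was -0.10 with 6 above 0, up to Psmb8, an immunoproteasome subunit (0.48, -0.11 to 1.06). In unmarked spots 5 of these genes were lower and 1 higher. Summed over the list, where abundant members weigh most, the log2 ratio was 0.09 (0.07 to 0.12) and lay above 0 in 7 of 10 regions, so the median and the sum differ in sign. The most abundant members are Gfap, Cst3 and Ctsb. Cst3 is also on the homeostatic microglia list and Ctsb on the plaque-associated microglia list. In both sections Gfap was enriched in plaque over unmarked spots, by a log2 ratio of 0.97 in 5xFAD-Dp16 and 0.95 in 5xFAD.

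Complement genes differed by member, and lysosomal genes had a median near 0. C1qa, a subunit of the initiating C1q complex, had 433 CPM in 5xFAD-Dp16 and 419 CPM in 5xFAD (log2 ratio 0.05, -0.06 to 0.16), and C4b, a later component, 0.18 (-0.06 to 0.41). Over the 8 complement genes used the median was 0.09. Their sum was 2307 CPM in 5xFAD-Dp16 and 2547 CPM in 5xFAD (log2 ratio -0.14, -0.19 to -0.10). Of these 8, Clu, the chaperone clusterin (-0.44, -0.51 to -0.37), and Cd59a, a complement inhibitor (-0.70, -1.08 to -0.33), were lower, against 6.08% of all genes used. Clu kept the call under all 22 alternatives, and Cd59a lost it without Thalamus and with the mean of spot CPM. The 43 lysosome and autophagy genes had a median of 0.00 with 2 higher and 1 lower, against 3.45% and 6.08% of all genes used. Ctsd, a lysosomal protease, had 1428 CPM in 5xFAD-Dp16 and 1301 CPM in 5xFAD (0.14, 0.07 to 0.20). The inflammatory chemokine genes Ccl3 (-0.26, -0.67 to 0.14), Ccl4 (-0.21, -0.83 to 0.38) and Ccl6 (0.10, -0.16 to 0.35) did not differ beyond counting error.

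Oligodendrocyte and myelin genes were more often above than below 0 in plaque spots: 20 of 25 used, with a median log2 ratio of 0.22, 6 higher and 2 lower. Of all genes used, 47.6% lay above 0, 3.45% were higher and 6.08% lower. Summed over the list, the ratio was above 0 in 6 of 10 regions, from -0.42 to 0.63. Without region weights the median was -0.0064. In unmarked spots the median was -0.08. Mal, a proteolipid of compact myelin, had 461 CPM in 5xFAD-Dp16 and 290 CPM in 5xFAD (0.67, 0.54 to 0.80) and was above 0 in 9 of 10 regions. Il33, an alarmin cytokine made by oligodendrocytes and astrocytes, had 147 CPM in 5xFAD-Dp16 and 96.1 CPM in 5xFAD (0.61, 0.39 to 0.83). Cryab, a small heat shock protein, had 0.51 (0.41 to 0.61), Mog 0.38 (0.19 to 0.57), Mobp 0.34 (0.25 to 0.43) and Qdpr, which recycles a cofactor of amine synthesis, 0.34 (0.24 to 0.44), and these 4 lost the call without region weights. Mbp, a main protein of myelin, stayed below the fold (0.10, 0.05 to 0.14). The lower ones were Gsn, which severs actin (-0.37, -0.70 to -0.04) and lost the call under 5 of 22 alternatives, and Enpp2 (-0.63, -0.76 to -0.50), which choroid plexus also expresses and which lost the call without Cortex CTXsp and with the 5 regions of at least 20 plaque spots.

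Activity-regulated genes of neurons were more often lower than higher. Of 18 immediate early genes used from 24 listed, 7 were lower and 1 higher, against 6.08% and 3.45% of all genes used. Their median log2 ratio was -0.26 in plaque spots, -0.15 in unmarked spots and -0.67 in Dp16 over wild-type. Arc, a synaptic immediate early gene, had 48.5 CPM in 5xFAD-Dp16 and 84.1 CPM in 5xFAD (-0.79, -1.10 to -0.49), and the transcription factor genes Junb and Egr1 had -0.88 (-1.24 to -0.53) and -0.51 (-0.76 to -0.25). Btg2 and Nr4a2 were both at -1.12, while the orphan receptor Nr4a1 was higher at 0.41 (0.05 to 0.77). Without region weights the list median was -0.059, and Arc (-0.25) and Egr1 (-0.09) lost the call. Nr4a1 lost it without Cortex OLF, with equal region weights and with the mean of spot CPM.

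Glutamatergic synapse genes had a median of -0.12 over 31 genes, with 7 lower and 1 higher, against -0.22 in unmarked spots. By the same rule 6.08% of all genes used were lower and 3.45% higher. Grin2b, an NMDA receptor subunit, had 32.1 CPM in 5xFAD-Dp16 and 50.8 CPM in 5xFAD (-0.66, -1.04 to -0.29), and the higher one was Nlgn1, a synaptic adhesion molecule (0.69, 0.131 to 1.246), a call lost without Cortex OLF, with equal region weights and with the mean of spot CPM. Snap25 (0.02, -0.03 to 0.06), of the vesicle fusion machinery, and the vesicular transporter Slc17a7 (-0.21, -0.33 to -0.10) stayed within the fold. The inhibitory neuron list had a median of 0.015 over 16 genes, with 9 above 0, 3 higher and none lower. Its members ran from Gabra2, a GABA receptor subunit (-0.53, -1.12 to 0.04), to Reln, the extracellular protein reelin, with 24.0 CPM in 5xFAD-Dp16 and 11.99 CPM in 5xFAD (1.00, 0.35 to 1.65), a call lost with the mean of spot CPM. Thy1, whose regulatory elements drive the transgenes, had 1479.7 CPM in 5xFAD-Dp16 and 1982 CPM in 5xFAD (-0.42, -0.48 to -0.37, a call lost without region weights), with -0.29 in unmarked spots. Bace1, the beta-secretase, had 37.4 CPM in 5xFAD-Dp16 and 35.6 CPM in 5xFAD (0.07, -0.33 to 0.46), and 16 amyloid precursor processing genes had a median of -0.14, with 12 below 0, none higher and 1 lower. The lower one was Adam10, an alpha-secretase (-0.41, -0.80 to -0.02), which lost the call under 9 of 22 alternatives.

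Energy genes moved by little, and oxidative stress genes lay mostly above 0. The 74 nuclear oxidative phosphorylation genes had a median of 0.08 with 58 above 0 and 1 lower, Ndufv1, a complex I subunit (-0.39, -0.56 to -0.23), whose call was lost without Cortex SSp and with the 5 regions of at least 20 plaque spots. Over all genes used 47.6% lay above 0, 3.45% were higher and 6.08% lower. The 13 mitochondrially encoded genes had a median of -0.12 with 1 lower. The 18 oxidative stress genes used had a median of 0.15 with 15 above 0, 1 higher and 1 lower. Their sum, where abundant members weigh most, was 7252 CPM in 5xFAD-Dp16 and 6188 CPM in 5xFAD (log2 ratio 0.23, 0.20 to 0.26). The summed ratio was above 0 in all 10 regions and was 0.19 in unmarked spots. Gpx1, a peroxide-removing enzyme, was the one called higher, at 323 CPM in 5xFAD-Dp16 and 240 CPM in 5xFAD (0.43, 0.29 to 0.56), above 0 in all 10 regions. The lower one, Keap1, lost the call under 11 of 22 alternatives.

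Further genes outside the stretch came out of the ranking by counting interval. Sgk1, a kinase induced by glucocorticoids, had 128 CPM in 5xFAD-Dp16 and 70.4 CPM in 5xFAD (log2 ratio 0.86, 0.60 to 1.11) and 0.69 in unmarked spots, whereas Dp16 over wild-type was -1.51, with 42.8 CPM in Dp16 and 122 CPM in wild-type. Bc1, a non-coding RNA of dendrites, had 8698 CPM in 5xFAD-Dp16 and 6270.3 CPM in 5xFAD (0.47, 0.45 to 0.50) and a larger ratio in unmarked spots (0.86). Slc5a5, the sodium iodide symporter, had 0.78 (0.43 to 1.13), and Serinc5, a membrane protein that limits retroviruses, 0.83 (0.42 to 1.22) against -0.09 in unmarked spots. Eno1b (1.07) and Rpl10-ps3 (0.93) have near-identical copies among which reads can be split, and their values are uncertain. The same holds for Hba-a1 with Hba-a2, Hbb-bs with Hbb-bt, H2-K1 with H2-D1, C4b with its paralog and Ifit3 with Ifit3b. Among the lowest were Atp2b4, a calcium pump (-1.13, -1.59 to -0.69), Ccn2, a matrix-associated growth factor (-1.24, -1.84 to -0.68), which lost the call with the mean of spot CPM, and Ctxn3 (-0.93, -1.16 to -0.71).

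Blood and choroid plexus genes were among the lowest, with large differences from region to region. Hbb-bs, an adult beta-globin, had 314 CPM in 5xFAD-Dp16 and 859 CPM in 5xFAD (log2 ratio -1.45, -1.55 to -1.35), but its regional ratio ran from -3.78 in Cortex SSp to 2.29 in Cortex OLF. Its UMIs sat in few spots, with 61.8% in the 5 highest plaque spots of 5xFAD-Dp16 and 55.4% in those of 5xFAD. The 4 blood genes used were all lower, against 6.08% of all genes used. The list summed to 609 CPM in 5xFAD-Dp16 and 1799 CPM in 5xFAD in plaque spots. Ttr, the choroid plexus transport protein, had 1397 CPM in 5xFAD-Dp16 and 5306 CPM in 5xFAD (-1.93, -1.97 to -1.88). Of the 25579 Ttr UMIs in 5xFAD, 12241 came from Cortex CTXsp and 12390 from Cortex OLF, and without Cortex CTXsp the Ttr ratio was -0.84. Thinned plaque spots held Ttr in 61.1% in 5xFAD-Dp16 and 62.0% in 5xFAD. Choroid plexus genes summed to 1668 CPM in 5xFAD-Dp16 and 5772 CPM in 5xFAD over 10 genes. Meningeal fibroblast genes summed to 121 CPM in 5xFAD-Dp16 and 141 CPM in 5xFAD over 14 genes, endothelial genes to 346 and 374 CPM over 15, and mural genes to 152 and 174 CPM over 12. No gene of these 5 lists was at 0 in either section. Neutrophil markers had 14 UMIs in 5xFAD-Dp16, with Ngp and Camp at 0, and 67 in 5xFAD over 4 genes, none of which passed the filter. The part of these cells in other differences was not tested, and without expression clusters 12 and 13, an alternative chosen after seeing the data, 292 of 8834 genes were higher and 534 lower.

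The plaque minus unmarked difference set the ratio in plaque spots against that in unmarked spots of the same sections: 420 genes (4.74%) were higher by the same rule and 237 (2.68%) lower. Besides Bst2, the highest by interval bound were Sema6d, an axon guidance semaphorin (1.33), Tnnt1, a troponin subunit (0.94, though above 0 in plaque spots in 3 of 10 regions), Prkcd, a protein kinase C (0.74), Patj, a tight junction scaffold (0.91), and Ttr (0.58). For Sema6d, plaque spots had 39.0 CPM in 5xFAD-Dp16 and 21.9 CPM in 5xFAD, while unmarked spots had 23.8 CPM in 5xFAD-Dp16 and 33.5 CPM in 5xFAD. The lowest were Cartpt (-2.18) and Penk (-1.14), both neuropeptide genes, and 4 globin genes between -1.43 and -0.81. Patj had 42.4 CPM in 5xFAD-Dp16 and 33.6 CPM in 5xFAD in plaque spots, a log2 ratio of 0.33 (-0.04 to 0.70) within counting error. Ttr turned to -0.25 when all spots outside the mark served as reference.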

How the data were processed

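Visium libraries of 4 sections were made into raw UMI counts per gene and spot; Space Ranger and Seurat with the mm10 build stand in the submitters' processing notes, without versions. The deposited matrix holds counts, and the deposited spot table gives the authors' percent of mitochondrial counts, region labels at 2 levels, clusters, and plaque and neighbour marks. The sources used here do not state how marks, regions and clusters were assigned. No spot was removed from the summed counts and no doublet caller was run. Thinned shares leave out spots of less than 4472 UMIs, among them 16 plaque spots of 5xFAD-Dp16 and 18 of 5xFAD. Of the spot barcodes, 1996 of 3164 occur in all 4 sections and 88 plaque barcodes in both sections, since slides share a barcode set.

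Counts were summed per section, region and spot class, scaled to the class total and standardised over 10 regions. Ratios carry F intervals for directly standardised Poisson rates, regional ratios exact conditional binomial intervals and shares exact binomial (Clopper-Pearson) intervals, all at 95% and for counting error only. A summed count of 0 was set to 3 counts. Intervals of plaque minus unmarked use log variances. Spots are not replicates, so no p-value was computed. Sections were grouped by the genotype in their labels. Total counts per section were between 26049860 and 36461389. The interval code was tested on simulated data. Python 3.11.15, numpy 2.4.6, scipy 1.17.1 and pandas 2.3.3 were used.

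The plaque spots, gene lists and naming rule were chosen with earlier results of these data known. Lists other than the stretch leave out its genes. Outside the stretch, the naming rule takes the 10 highest and 10 lowest by the interval bound nearest 0 among genes of at least 20 CPM. In the stretch it takes the 8 highest and 4 lowest by ratio, and for plaque minus unmarked the 6 highest and 6 lowest. For each list it takes the 3 most abundant and the highest and lowest members, and it adds a preset group. Not all genes taken by the rule are printed. Cxcl10, Ccl5, Oasl2, Rtp4, Isg15, Ifit3b, Ifitm3, Xaf1, Cmpk2, H2-Ab1, Ctss, Igf1, Cadm1, Mog, Qdpr, Gsn, Nr4a2, Junb, Aif1, Siglech and Olig1 were chosen after their values were seen. Gene symbols are those of the files, and 17874 matched RefSeq GRCm38.p6. Alternatives changed region weights, labels and cut-offs, scaling, filters, thinning and the spots used.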

Additional observations from a re-analysis of the deposited data

Results flagged for a closer look

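Genes whose ratio of 5xFAD-Dp16 over 5xFAD pointed opposite ways in plaque and unmarked spots, with both counting intervals excluding 0, were flagged, and these differences were not tested. Sema6d had a log2 ratio of 0.83 in plaque spots and -0.50 in unmarked spots. Tnnt1 had 0.49 in plaque spots and -0.45 in unmarked spots, but in plaque spots it was above 0 in 3 of 10 regions and lost the call without region weights and with the mean of spot CPM. Prkcd had 0.21 in plaque spots and -0.52 in unmarked spots. Cartpt had -0.49 in plaque spots and 1.69 in unmarked spots, and Penk had -0.39 and 0.75. Cartpt was 0.14 in plaque spots without Hypothalamus.

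Plaque spots of Cortex RSP CL lie outside the comparison, since that label has no spot in 5xFAD. Its 17 plaque spots in 5xFAD-Dp16 had 127 CPM of Cst7 (30 of 235950 UMIs), against 0 of 633372 UMIs in the same region of Dp16, which allows up to 5.82 CPM by the exact Poisson limit. Tyrobp had 386 CPM in those plaque spots and 109 CPM in Dp16. Ifi27l2a and Bst2 were not higher there, with 29.7 CPM of Ifi27l2a (7 UMIs) in the plaque spots and 36.3 CPM in Dp16, and 21.2 CPM of Bst2 (5 UMIs) in the plaque spots and 36.3 CPM in Dp16, with overlapping intervals for each gene.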

How the results depend on the processing

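No paired analysis was possible because each genotype is 1 section. With the mean of each spot's CPM in place of summed counts, 108 genes were higher and 172 lower, and at 1.5-fold 105 were higher and 208 lower. Both counts stayed within 1.5 times of 305 and 538 under the other settings, from 268 to 363 higher and 503 to 550 lower as each region was left out, although TMM scaling turned the split round to 435 and 391. Without region weights the median of myelin genes was -0.0064, of immediate early genes -0.059 and of the 2 T and B cell genes 0.19, and with the 5 regions of at least 20 plaque spots those of T and B cell genes and of the duplicated stretch were 0.069 and 0.60. Spp1 turned to 0.19 with equal region weights, Cartpt (range -0.71 to 0.14 as each region was left out) and Gpnmb (-0.61 to 0.060) turned without Hypothalamus, Mgp turned to -0.049 without expression clusters 12 and 13 (chosen after seeing the data), and the plaque minus unmarked value of Ttr to -0.25 with all other spots as reference. The causes were not tested. As each region was left out, list medians ran from 0.38 to 0.62 for interferon-stimulated genes, 0.47 to 0.56 for the stretch, -0.06 to 0.05 for plaque-associated microglia and -1.30 to -0.90 for MHC class II. The finer region label dropped Hippocampus, where no finer label held 10 plaque spots in each section. Hippocampus rests on 13 plaque spots in 5xFAD, and genes under about 20 CPM on few UMIs.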
